A study of Mus musculus with 2 samples.

Results

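Islet hormones are made as longer precursors that are cut and trimmed inside secretory granules. The prohormone convertases Pcsk1 and Pcsk2 cut at basic residues, Cpe (carboxypeptidase E) removes the basic residues left at the new ends, and Pam amidates the ends of peptides such as amylin. Furin is a convertase of the Golgi that acts on many proteins of the secretory pathway, and Qpct (glutaminyl cyclase) turns an amino-terminal glutamine into pyroglutamate. β cells use both granule convertases to make insulin, and α cells use Pcsk2 to make glucagon. These 6 genes were taken by symbol from the 31053 genes of the count tables, and all 6 were counted in both libraries.

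Single-cell RNA sequencing was done on islets of male C57/B6 mice aged 16 weeks, pooled from 4 mice in each group. The labels name no diet for the wild-type (WT) group, and the study's methods give standard chow for mice not on the high-fat diet (HFD). The HFD group ate a lard-based diet with 60% of its kcal from fat, begun at 6 weeks of age and kept up for 10 weeks. Neither group carries an engineered allele or transgene in the labels. Each group is 1 library, so diet, islet preparation and library cannot be told apart, no test between groups was possible, and every interval given here is a 95% interval for counting error only. Cells with at least 500 genes and at most 20% mitochondrial unique molecular identifiers (UMIs, 1 per captured transcript) were used, with no maximum of UMIs. This left 2493 of 3895 barcodes in WT and 6673 of 8951 in HFD after likely doublets had been removed, with medians of 23997 and 10925 UMIs per cell. The libraries shared 3 barcodes among the cells used. Cell classes were named from marker genes without use of the 6 enzymes or the hormones for clustering. There were 2006 WT and 5857 HFD β-like cells, 51 and 210 α-like cells, 57 and 111 δ-like cells, and 12 and 29 γ-like cells (pancreatic polypeptide cells). Non-endocrine cells, from endothelial to immune, numbered 367 and 466, the few unnamed cells included.

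Each endocrine class was led by its own hormone, which is also among its markers. Insulin (Ins1 and Ins2) made up 600359 CPM (the count of a gene scaled to the summed UMIs of its class) in WT β-like cells and 568108.5 in HFD, glucagon (Gcg) 297922 and 292591 in α-like cells, somatostatin (Sst) 121932 and 157194 in δ-like cells, and Ppy 380610 and 356465 in γ-like cells. Hormones of neighbouring cells were present in every class. WT δ-like cells held Gcg at 31657 CPM against 622 in HFD, and α-like cells held insulin at 4260.5 CPM in WT against 21599 in HFD. β-like clusters were nearly all of 1 library. WT cells lay mostly in clusters 4, 6 and 8 (774, 553 and 351 cells) and HFD cells in clusters 0, 1 and 2 (1211, 1200 and 1008 cells). In the same way 48 of 51 WT α-like cells lay in cluster 20, and 111 of the HFD α-like cells in cluster 13. Of the δ-like cells 35 and 17 of the 57 in WT lay in clusters 29 and 37, and 92 of the 111 in HFD in cluster 14. All γ-like cells were in 1 cluster.

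Of the 6 genes, Pcsk1 and Pcsk2 are described first, and the bases before their starts are printed because the classes below differ most in the use of this pair. In GRCm38, the build of mm10, Pcsk1 (ENSMUSG00000021587) lies on chromosome 13 from 75089826 to 75134861 on the plus strand, and Pcsk2 (ENSMUSG00000027419) on chromosome 2 from 143546156 to 143816285 on the plus strand. Both sequences are from RefSeq (GRCm38.p6), plus strand, and each ends before the first annotated start of its gene. The first covers chr13:75089607-75089825 and the second chr2:143545883-143546132. Capitals mark TGACG and GGGCGG on either strand, and TGACGTCA, the palindrome known as the cAMP response element, which contains TGACG.
Pcsk1: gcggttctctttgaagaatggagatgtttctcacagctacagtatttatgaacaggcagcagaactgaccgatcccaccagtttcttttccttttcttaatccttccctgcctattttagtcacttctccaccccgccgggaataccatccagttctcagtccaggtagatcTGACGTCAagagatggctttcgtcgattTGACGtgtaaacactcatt
Pcsk2: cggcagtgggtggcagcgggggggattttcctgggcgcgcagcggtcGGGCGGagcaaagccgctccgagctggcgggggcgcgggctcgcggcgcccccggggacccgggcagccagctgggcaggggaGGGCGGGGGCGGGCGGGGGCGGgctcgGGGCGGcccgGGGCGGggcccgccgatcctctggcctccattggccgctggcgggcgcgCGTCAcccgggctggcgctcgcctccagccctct
The Pcsk1 stretch holds 1 TGACGTCA, which starts 47 bases before its end, and TGACG occurs 3 times when both strands are counted, with the palindrome counted on both. It holds no GGGCGG, though the full window of 300 bases, which runs on past the start, holds 1, and 45.7% of its 219 bases are G or C. The Pcsk2 stretch holds no TGACGTCA, 1 TGACG and 7 copies of GGGCGG, and 82.4% of its 250 bases are G or C. Over 32851 mouse promoters of 300 bases (250 before to 50 after each start), TGACGTCA occurred in 1.79%, TGACG in 20.8% and GGGCGG in 35.7%. Promoter rows were also held for Pam and Furin, 2 each, and none of these 4 contained TGACGTCA. These are matches of letters and are not evidence that a factor binds.

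Pcsk1 was highest in β-like cells and Pcsk2 was present in every endocrine class. In β-like cells Pcsk1 stood at 142 CPM in WT (139 to 145, 9008 UMIs) and 155 CPM in HFD (152 to 158, 12235 UMIs). In δ-like cells it was 66.7 CPM in WT (47.4 to 91.2, 39 UMIs) and 56.1 in HFD (34.2 to 86.6, 20 UMIs), which is 0.469 (0.333 to 0.642) and 0.361 (0.221 to 0.558) of the β-like level. These ratios are over all UMIs and depend on that scaling. Insulin made up 600359 CPM of WT β-like cells and 38192.5 of WT δ-like cells. α-like cells held 2 Pcsk1 UMIs in WT (3.43 CPM, 0.415 to 12.4) and 14 in HFD (13.04 CPM, 7.13 to 21.9). In γ-like cells there were 0 UMIs in WT, which allows up to 15.2 CPM at 3 counts, and 6 in HFD (33.1 CPM, 12.2 to 72.1). Non-endocrine cells, taken here as the background, held 5.69 CPM in WT (3.37 to 8.99) and 7.83 in HFD (3.91 to 14.01). The α-like intervals of both libraries overlap these background intervals, so the α-like level could not be told apart from this background at this depth. The background was not matched for insulin RNA. It held insulin at 21161 CPM in WT and 19030 in HFD, against 4260.5 and 21599 in α-like cells.

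Pcsk2 was highest in α-like cells, at 3678 CPM in WT (3524 to 3837) and 2579 in HFD (2484 to 2677). δ-like cells followed at 2193 (2074 to 2316) and 1794 (1657 to 1938), then γ-like cells at 1309 (1154 to 1478) and 1348 (1184 to 1528), and β-like cells were lowest at 1090 (1082 to 1098) and 1175 (1168 to 1183). The order was α, δ, γ, β in both libraries, and no 2 neighbours had overlapping counting intervals. This order below α-like cells depended on the scaling. With hormone and mitochondrial genes left out of the totals the levels were 6036.5 CPM in α-, 3517 in β-, 3480 in δ- and 3135 in γ-like cells of WT, and 4502 in α-, 3591 in β-, 3237 in γ- and 2748 in δ-like cells of HFD, so α-like cells stayed highest and β-like cells came next. Over all UMIs α-like cells held 3.37 times the β-like level in WT (3.23 to 3.52) and 2.19 times in HFD (2.11 to 2.28). Non-endocrine cells held 38.9 CPM in WT and 45.6 in HFD. Pcsk2os1 and Pcsk2os2 overlap Pcsk2 on the opposite strand.

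**Figure D1:**
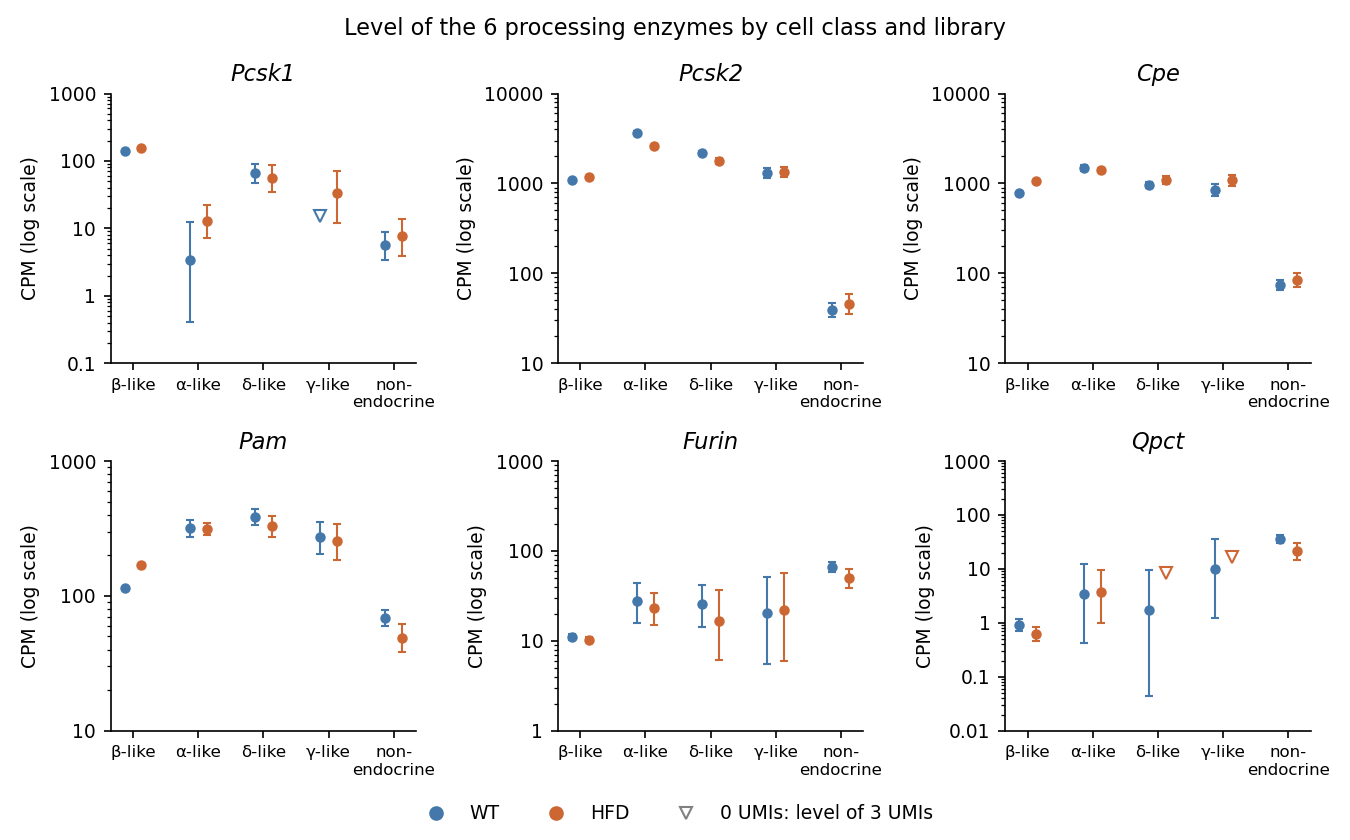
Level of each enzyme in CPM on a log axis by cell class, with WT in blue and HFD in orange; points are sums over the cells of a class, bars are exact Poisson 95% intervals, and open triangles mark classes with 0 UMIs at the level of 3 UMIs. Pcsk1 is highest in β-like cells and Pcsk2 in α-like cells in both libraries, and Furin and Qpct are higher in the pooled non-endocrine cells than in β-like cells.

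The share of Pcsk1 among the UMIs of the pair compares use of the convertases within the same cells, so it does not depend on scaling. Since each UMI is 1 captured transcript end, no length correction was made, and the capture of the 2 transcripts may differ by a factor that is the same for all classes. The share was 11.5% in WT β-like cells (exact Clopper-Pearson interval 11.3 to 11.8) and 11.7% in HFD (11.5 to 11.9), so about 7.66 and 7.58 Pcsk2 UMIs were counted for each Pcsk1 UMI. δ-like cells gave 2.95% in WT (2.11 to 4.01) and 3.03% in HFD (1.86 to 4.64). α-like cells gave 0.0931% in WT (0.0113 to 0.336) and 0.503% in HFD (0.275 to 0.843), and with classes set by hormone instead 0% in WT (up to 0.251) and 0.0594% in HFD (0.00150 to 0.330). γ-like cells gave 0% in WT (up to 1.41) and 2.40% in HFD (0.886 to 5.15). The β-like interval lay above that of each other endocrine class in both libraries. Within each endocrine class the WT and HFD intervals of the share overlapped.

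Insulin UMIs were present in every class, so the shares were also taken over cells with under 2% insulin UMIs, a limit chosen after seeing the data. All 51 WT α-like cells passed it and 200 HFD α-like cells passed with a share of 0.236% (0.0868 to 0.514). The share was 1.99% over 51 WT δ-like cells (1.22 to 3.06) and 2.27% over 91 HFD δ-like cells (1.14 to 4.03). Over 24 HFD γ-like cells it was 1.37% (0.283 to 3.95). At the Pcsk1 to insulin ratio of β-like cells, the insulin UMIs of HFD α-like cells would bring 6.33 Pcsk1 UMIs, against 14 counted, and those of HFD γ-like cells 3.16, against 6 counted. In δ-like cells they would bring 5.29 of the 39 in WT and 2.78 of the 20 in HFD. One WT δ-like cell held 11 of the 39 Pcsk1 UMIs.

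**Figure D2:**
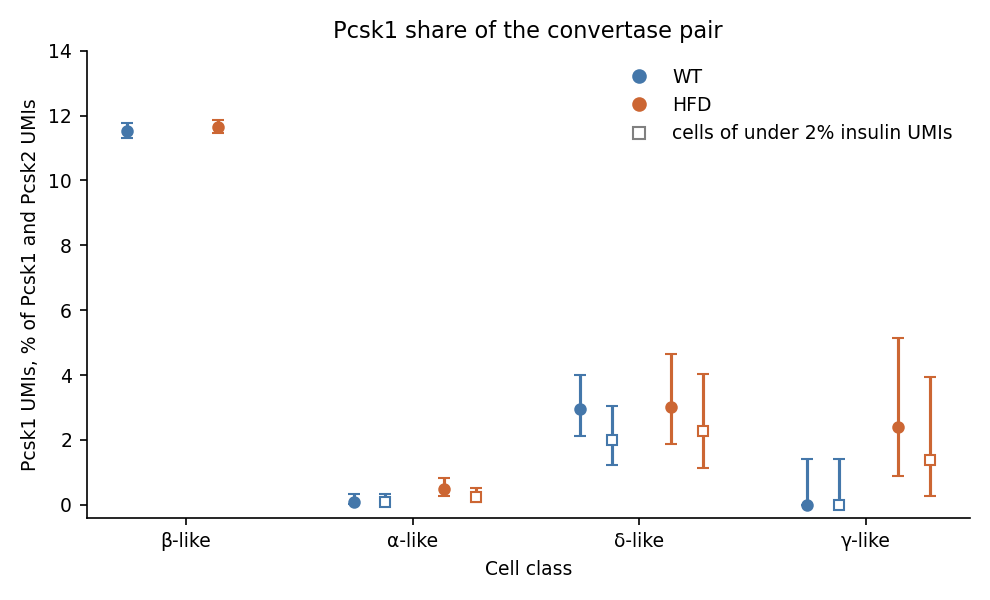
Pcsk1 UMIs as a percentage of the Pcsk1 and Pcsk2 UMIs in each endocrine class, WT in blue and HFD in orange; filled circles are all cells, open squares are cells with under 2% insulin UMIs, and bars are exact Clopper-Pearson 95% intervals. β-like cells lie at 11.5% and 11.7%, δ-like cells near 3%, and α-like cells at or below 0.503%.

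Single cells showed the same pattern after each was thinned to 2000 UMIs, with shallower cells left out. Of 1918 WT β-like cells 21.4% held both convertases, 66.0% held Pcsk2 alone, 3.02% held Pcsk1 alone and 9.65% held neither. Of 5844 HFD β-like cells the shares were 24.0%, 64.8%, 2.74% and 8.47%. None of 51 WT α-like cells held a Pcsk1 UMI at this depth, which allows up to 5.88% at 3 cells, and 3 of 206 HFD α-like cells did (1.46%, 0.301 to 4.20). In the non-endocrine cells the share with a Pcsk1 UMI was 0.590% of 339 in WT and 0.816% of 245 in HFD. These shares are of 1 random draw. Over all possible draws the expected Pcsk1 shares were 0.347% and 1.60% in α-like cells of WT and HFD and 0.721% and 1.33% in non-endocrine cells. Among δ-like cells 7.27% of 55 in WT (2.02 to 17.6) and 8.74% of 103 in HFD (4.07 to 15.9) held Pcsk1 in that draw, and each of these cells also held Pcsk2. A second draw gave 9.09% and 14.6% of δ-like cells, and the expected shares were 8.75% and 10.7%. Without thinning, Pcsk1 UMIs were found in 3.92% of WT and 5.24% of HFD α-like cells, in 29.8% and 15.3% of δ-like cells, and in 3.54% and 2.15% of non-endocrine cells. The median α-like cell held 7 Pcsk2 UMIs per 2000 in WT and 5 in HFD, while the median β-like cell held 2 in both. The 2000 UMIs include those of the hormones, so the size of this contrast depends on the scaling, like the Pcsk2 levels above.

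Cpe and Pam, the enzymes that finish the ends of the cut peptides, were found in all 4 endocrine classes. Cpe (ENSMUSG00000037852, chromosome 8, 64592542 to 64693054, minus strand) was highest in α-like cells, at 1485 CPM in WT (1388 to 1587) and 1406 in HFD (1336 to 1479). The δ-like level was 958 (880 to 1041) and 1082 (977 to 1195), the γ-like level 854 (730 to 993) and 1088 (941 to 1251), and the β-like level 775 (768 to 781) and 1053 (1046 to 1061). In HFD the δ-, γ- and β-like levels had overlapping counting intervals. With hormone and mitochondrial genes left out of the totals, the order of α- and β-like cells turned, to 2438 against 2499 CPM for Cpe in WT and 2454 against 3218 in HFD. Pam (ENSMUSG00000026335, chromosome 1, 97795114 to 98095646, minus strand) was highest in δ-like cells, at 387 CPM in WT (338 to 440) and 328 in HFD (271 to 393). α-like cells followed at 317 (273 to 366) and 314 (281 to 349), overlapping the δ-like intervals. β-like cells were the lowest endocrine class for Pam, at 115 (112 to 117) and 169 (166 to 172). Without hormone and mitochondrial genes the Pam level in WT was still lowest in β-like cells, at 370 CPM against 520 in α- and 613 in δ-like cells, while in HFD it was 516 in β-, 548 in α- and 502 in δ-like cells. Over all UMIs fibroblast-like cells held Pam at 142 CPM in WT (103 to 190) and 170 in HFD (73.3 to 335), and both intervals contain the β-like level. This overlap depends on the scaling, since insulin made up 600359 CPM of WT β-like and 4409.5 of WT fibroblast-like cells. Fibroblast-like levels without hormone and mitochondrial genes were not taken. Pam overlaps 3 genes of its own strand and 2 of the other in the annotation, and how reads shared with them were counted was not checked here.

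Furin and Qpct were higher in the pooled non-endocrine cells than in β-like cells, at 66.3 and 49.8 CPM for Furin and 36.0 and 21.4 CPM for Qpct in WT and HFD. Furin (ENSMUSG00000030530, chromosome 7, 80388585 to 80405436, minus strand) stood at 11.2 CPM in WT β-like cells (10.3 to 12) and 10.3 in HFD (9.59 to 11.01). Endothelial-like cells held 91.1 CPM in WT (70.9 to 115) and 75.2 in HFD (45.9 to 116), which is 8.17 times (6.29 to 10.5) and 7.31 times (4.44 to 11.4) the β-like level. These Furin ratios are over all UMIs, of which insulin made up 600359 CPM in WT β-like cells and 4714 in WT endothelial-like cells. They depend on this scaling by an amount that was not tested. In α-like cells Furin was at 27.4 (15.7 to 44.5) and 23.3 CPM (15.1 to 34.4). The highest Furin value of the classes measured was in 12 WT T-like cells, 629 CPM (360 to 1022), from 16 UMIs in 7 cells, all of cluster 39. The 168 HFD T-like cells held 27.8 CPM (12.7 to 52.7) from 9 UMIs, but 121 and 38 of them were of clusters 12 and 33, which held no WT cell, so the values are mostly of different clusters. Cluster 39 was led by Calca, Tnfrsf18, Gata3, Ccl1 and Il13. Its leading genes held 1 T-cell marker, against 4 in each of clusters 12 and 33, so its name as T-like is less sure. Gm44851 overlaps Furin on the opposite strand. Qpct (ENSMUSG00000024084, chromosome 17, 79051906 to 79090378, plus strand) was at 0.932 CPM (0.709 to 1.20) and 0.634 CPM (0.470 to 0.836) in β-like cells. Ductal-like cells held Qpct at 78.3 CPM in WT (61.8 to 97.9) and 95.1 in HFD (57.2 to 149), and macrophage-like cells at 107 (67.3 to 163) and 43.6 (11.9 to 112). In each library the intervals of these 2 classes overlapped.

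The pattern of Pcsk1 and of Pcsk2 over cell classes was compared with that of 3880 genes with at least 100 CPM in 1 profile, by Pearson correlation of log2(CPM + 10) over 19 profiles, 1 for each class and library with at least 20 cells. The profiles of 1 library share its free RNA, and these correlations are a description. The 5 genes most like Pcsk1 were Defb1 (r = 0.945), Ppp1r1a (0.910), Iapp (0.907), Spock2 (0.905) and Ins2 (0.888). Iapp encodes amylin and Ins2 insulin, 2 products of β cells. The 5 genes most like Pcsk2 were Pcsk1n (0.993), Fam183b (0.984), Chga (0.981), Scg3 (0.977) and Ptprn (0.971). Pcsk1n encodes the convertase inhibitor proSAAS, Chga chromogranin A, Scg3 a secretogranin and Ptprn a membrane protein of dense-core granules. Pcsk1n stood at 5581 and 4330 CPM in α-like cells against 1384 and 1356 in β-like cells of WT and HFD. The others differed less among endocrine classes. In WT α-, β- and δ-like cells Chga was at 4987, 4942 and 5174 CPM and Scg3 at 586, 542.5 and 699.5. Fam183b was at 255, 121 and 229 and Ptprn at 204, 140 and 231. The profiles include non-endocrine classes, so likeness over all of them need not hold among endocrine classes.

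The second comparison set HFD against WT within a class. In β-like cells 34 of 562 genes with at least 100 CPM in 1 library differed by at least 1.5-fold, which is 6.05%, and the median gene was higher in HFD by 0.17 on the log2 scale. Of the 6 enzymes, 4 reached 100 CPM and none of these 4 passed 1.5-fold. Pam was at 115 CPM in WT and 169 in HFD, a ratio of 1.47 (1.43 to 1.52). Cpe was at 775 and 1053, a ratio of 1.36 (1.35 to 1.38). Relative to the median gene these differences were 0.39 for Pam and 0.27 for Cpe on the log2 scale, above 96.6% and 92.9% of the genes tested. Pcsk1 had a ratio of 1.09 (1.06 to 1.12) and Pcsk2 of 1.08 (1.07 to 1.09), and both lay below the median gene, at -0.048 and -0.064 relative to it on the log2 scale. The direction of both convertases therefore turned when the median gene was set to 1, and it stayed upward, at 0.046 and 0.030, when hormone and mitochondrial genes were left out of the scaling. Furin had a ratio of 0.922 (0.833 to 1.02) and Qpct of 0.680 (0.457 to 1.01), on 706 and 59 UMIs in WT and 811 and 50 in HFD, and both intervals contain 1.

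β-like cells of the libraries differed in depth, with medians of 28570.5 UMIs in WT and 11901 in HFD, so the ratios were taken in 5 bands of UMIs per cell. The bands held 181 and 228 cells under 5000 UMIs, 59 and 1902 from 5000, 82 and 1787 from 10000, 737 and 1794 from 15000, and 947 and 146 from 30000 (WT first). Of the 181 WT cells under 5000 UMIs, 158 were of the 2 clusters with a median under 5000 UMIs. The share of all genes past 1.5-fold was 42.6%, 8.03%, 18%, 10.3% and 14.7% in the 5 bands.

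Cpe was higher in HFD in all 5 bands, with an interval above 1 in each. Over all β-like cells 73% of 562 genes had an interval above 1, and this share was not taken by band. Relative to the median gene of its band, Cpe lay between 0.21 and 0.51 on the log2 scale. Its CPM was 949 and 1120 under 5000 UMIs, 874 and 1043 from 5000, 792 and 1086 from 10000, 767 and 1044 from 15000, and 774 and 1001 from 30000. The ratios were 1.18 (1.05 to 1.33), 1.19 (1.08 to 1.32), 1.37 (1.28 to 1.47), 1.36 (1.33 to 1.39) and 1.29 (1.26 to 1.33). None of them reached 1.5-fold. Under 5000 UMIs 158 of the 181 WT cells were of the low-UMI clusters 10 and 11. WT Cpe was 1057 CPM in cluster 10 and 346 in cluster 11, where insulin was 7.47% of UMIs. The part of this mix in the Cpe ratio of the lowest band was not tested, so the direction there is uncertain.

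The direction of Pam was not the same over the bands. From the lowest band up its ratio was 0.908 (0.719 to 1.15), 0.716 (0.580 to 0.892), 1.17 (0.995 to 1.38), 1.46 (1.39 to 1.54) and 1.87 (1.74 to 1.995). The WT level was lower in each higher band, at 273, 209, 145, 116 and 111 CPM, while the HFD level was 248, 149, 169, 170 and 207. The low WT bands also held other cells. Of the 59 WT cells from 5000 UMIs, 22 were of the low-UMI clusters 10 and 11, and Ppy there was 12693 CPM against 598 in HFD. WT Pam was 225.5 and 254 CPM in clusters 10 and 11, against 110, 103 and 105 in clusters 4, 6 and 8. The part of this mix in the Pam ratios was not tested. In cells from 30000 UMIs Pam was the one enzyme of at least 100 CPM past 1.5-fold. With a maximum of 15000 UMIs per cell, the β-like ratio of Pam was reversed, at -0.20 on the log2 scale.

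Pcsk1 had ratios from 1.04 to 1.07 in 4 bands, with intervals that contain 1. In the band from 10000 UMIs it stood at 111 CPM in WT and 173 in HFD, a ratio of 1.56 (1.30 to 1.89), and it was the one enzyme of at least 100 CPM past 1.5-fold there. The 82 WT cells of that band also held Gcg at 9032 CPM, against 329 in HFD, and insulin at 51.2% of UMIs, against 57.2%, and the part of this in the ratio was not tested. Pcsk2 had ratios of 1.24 (1.12 to 1.38), 0.990 (0.907 to 1.08), 0.9501 (0.9003 to 1.003), 1.05 (1.03 to 1.07) and 0.930 (0.903 to 0.958), so its direction was not the same over bands. The Pcsk1 share of the pair was 11.6% in WT and 11.5% in HFD from 15000 UMIs, and 11.6% (11.4 to 11.9) and 12.8% (11.9 to 13.7) from 30000, where the intervals are next to each other without overlap before rounding. From 10000 UMIs it was 7.81% (6.51 to 9.28) and 12.2% (11.9 to 12.6), and in the lower bands it lay between 10.4% and 12.9%.

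**Figure D3:**
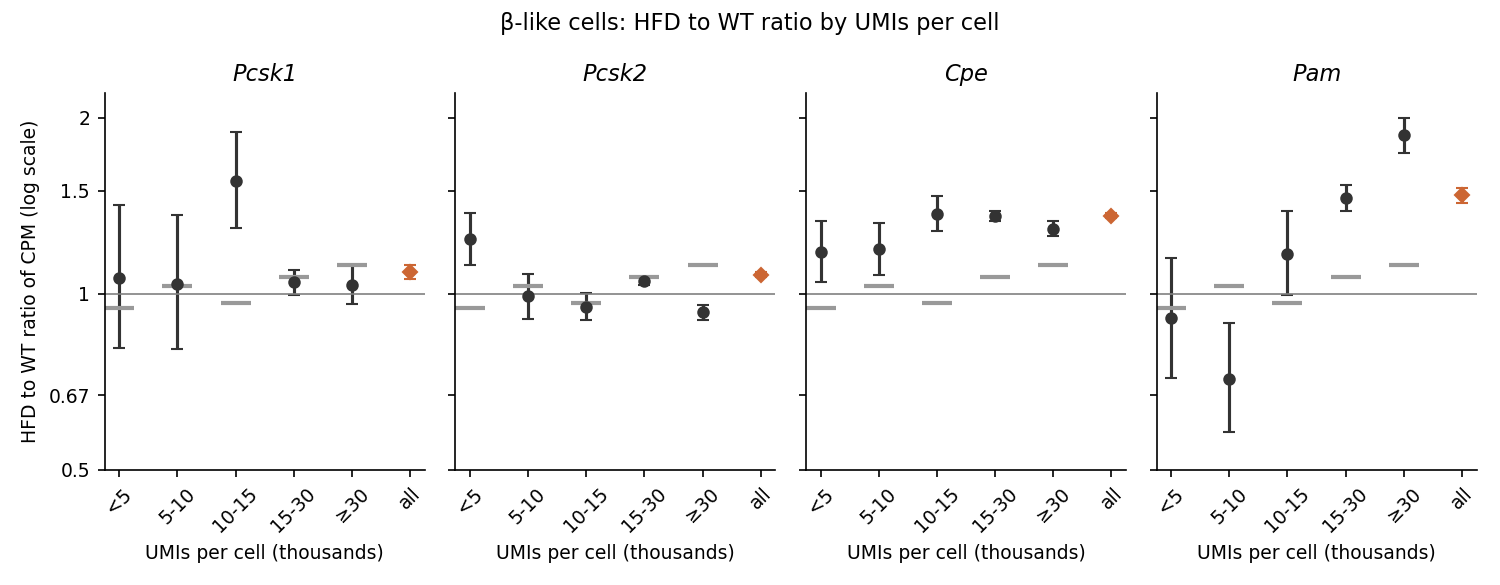
Ratio of HFD to WT in β-like cells (log axis) for Pcsk1, Pcsk2, Cpe and Pam in 5 bands of UMIs per cell and over all β-like cells (orange diamond); bars are exact 95% intervals for counting error and grey dashes are the median of all genes of at least 100 CPM in that band. Cpe lies above 1 in every band, and Pam goes from 0.716 between 5000 and 10000 UMIs to 1.87 from 30000 UMIs.

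The spread over single β-like cells was taken at 10000 UMIs per cell, which kept 1766 WT and 3727 HFD cells. Pcsk2 was seen in all but 2 WT cells and in every HFD cell, with a median of 11 UMIs in both and the middle 80% of cells between 6 and 17 in WT and between 6 and 18 in HFD. Cpe had a median of 7 in WT and 10 in HFD, with the middle 80% between 4 and 12 and between 6 and 16. Pcsk1 was at 0 in 29.4% of WT cells and 24.0% of HFD cells, with a mean of 1.40 and 1.60 UMIs and a highest cell of 9 in both. Pam was at 0 in 33.4% and 22.3%, with means of 1.16 and 1.71. The variance over the mean, which is 1 for counting noise alone, was 1.26 and 1.252 for Pcsk1, 1.77 and 1.997 for Pcsk2, 1.41 and 1.33 for Cpe, and 1.14 and 1.29 for Pam. For Cpe the 10th, 50th and 90th percentiles were all higher in HFD, and for Pcsk2 they were equal or higher by 1 UMI.

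**Figure D4:**
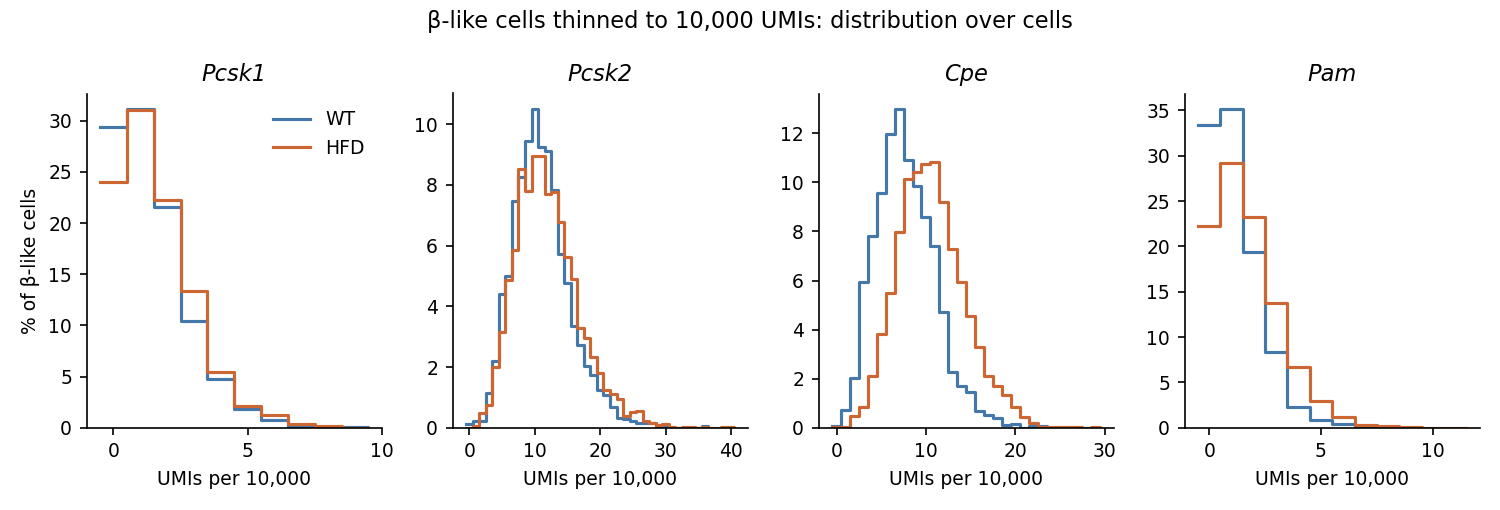
Percentage of β-like cells (vertical axis) with each number of UMIs (horizontal axis) after thinning to 10000 UMIs per cell, for Pcsk1, Pcsk2, Cpe and Pam, with 1766 WT cells in blue and 3727 HFD cells in orange. The Cpe curve has its median at 7 in WT and 10 in HFD, and the Pcsk2 curves have the same median of 11.

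The enzymes also varied over the β-like clusters of at least 20 cells, of which 7 held WT and 11 held HFD cells. The Pcsk1 share of the pair ran from 5.10% in cluster 31 to 13.8% in clusters 10 and 11 in WT, and from 7.83% in cluster 26 to 16.2% in cluster 11 in HFD. Cluster 31 held 36 WT cells with insulin at 33.4% of UMIs and Pcsk2 at 1754 CPM, the highest WT value. Clusters 22, 24 and 26 of HFD, with 49, 43 and 39 cells, had shares of 8.73%, 8.35% and 7.83% and insulin at 36.8%, 44.1% and 42.0% of UMIs, against 52.1% to 59.4% in the other HFD clusters. Pam ran from 110 to 297 CPM over the HFD clusters, and Cpe from 946 to 1502. The 47 HFD cells of cluster 11, with a median of 3481 UMIs, held the highest HFD levels of Pcsk1 (484 CPM) and Pcsk2 (2501 CPM). The 77 WT cells of that cluster had a median of 1196 UMIs and insulin at 7.47% of UMIs. Without the 2 clusters of under 5000 median UMIs, the β-like ratio was 0.45 for Cpe and 0.57 for Pam on the log2 scale.

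In α-like cells 11.2% of 990 genes passed 1.5-fold and the median gene was lower in HFD, at -0.12 on the log2 scale. Pcsk2 was at 3678 CPM in WT and 2579 in HFD, a ratio of 0.701 (0.663 to 0.742), or -0.51 on the log2 scale and -0.39 relative to the median gene. It kept its direction in each alternative tried over all α-like cells, between -0.52 and -0.30 on the log2 scale. In the band from 5000 to 15000 UMIs, which held 41 WT and 81 HFD cells, the ratio was 0.638 (0.592 to 0.687), with 3705 and 2363 CPM, past 1.5-fold as were 18.8% of all genes there. From 15000 UMIs, with 9 and 2 cells, it was 0.618 (0.483 to 0.781), where 56% of all genes were past 1.5-fold. Under 5000 UMIs there was 1 WT cell against 127 HFD cells, and the ratio was 0.891 (0.431 to 2.22). Cpe had a ratio of 0.947 (0.870 to 1.03) and Pam of 0.991 (0.826 to 1.19), and both intervals contain 1. Pcsk1 and Furin, with 2 and 16 UMIs in WT and 14 and 25 in HFD, had ratios of 3.81 (0.874 to 34.5) and 0.850 (0.436 to 1.70). Qpct had 2 and 4 UMIs.

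In δ-like cells 12.2% of 1272 genes passed 1.5-fold, and the median gene was at 0.09 on the log2 scale. Pcsk2 was at 2193 and 1794 CPM, a ratio of 0.818 (0.743 to 0.9001), which was 0.928 (0.761 to 1.13) between 5000 and 15000 UMIs with 44 WT and 9 HFD cells, and 0.991 (0.621 to 1.69) under 5000 UMIs with 4 and 102 cells. Both of these intervals contain 1. The larger Gcg content of the WT δ-like cells given above stood beside this ratio, and its part was not tested. Over the cells with under 2% insulin UMIs, WT δ-like cells still held Gcg at 21662 CPM against 756 in HFD. Cpe had a ratio of 1.13 (0.990 to 1.29), Pam of 0.848 (0.673 to 1.07) and Pcsk1 of 0.840 (0.464 to 1.48). In γ-like cells 20.7% of 779 genes passed 1.5-fold. Pcsk2 had a ratio of 1.03 (0.861 to 1.23), Cpe of 1.27 (1.03 to 1.57) and Pam of 0.931 (0.614 to 1.41). In the same cells the ratio was 20.7 for Ins2, 10.8 for Ins1, 5.15 for Iapp and 0.165 for Gcg, and the part of this RNA in the enzyme ratios was not tested. Over all cells of a class, no enzyme of at least 100 CPM passed 1.5-fold in α-, δ- or γ-like cells.

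The enzymes work with helpers and on substrates, and 32 such genes were counted beside them. In β-like cells 13 of the 32 reached 100 CPM. The interval of the ratio lay above 1 for 5 of these and below 1 for 8, while over all 562 genes it lay above 1 for 73% and below 1 for 19.6%. The median of the 13 was -0.07 on the log2 scale against 0.17 over all genes and 0.28 over the 4 enzymes that reached that level. The 13 include Gcg, Sst, Ppy and Pyy, hormones of the other endocrine classes, with log2 ratios from -1.69 (Ppy) to -0.61 (Sst). All 4 had intervals below 1 and lower the median of the 13. Without them the middle gene was Chgb, at 0.125 on the log2 scale. Iapp, Scg5, Ctsl and Atp6ap2 lay above it, and Chga, Ins1, Ins2 and Pcsk1n below. The other genes with intervals below 1 were Pcsk1n, Ins1, Ins2 and Chga, with log2 ratios from -0.13 (Chga) to -0.030 (Pcsk1n). Scg5, which encodes 7B2, the chaperone that Pcsk2 needs to become active, was at 503 CPM in WT and 676 in HFD, a ratio of 1.34 (1.33 to 1.36). Its intervals lay above 1 in 4 of 5 bands, and the share of all genes with such intervals was not taken by band. Relative to the median gene of its band, Scg5 lay between 0.069 and 0.39 on the log2 scale. Pcsk1n was at 1384 and 1356, a ratio of 0.980 (0.971 to 0.988), with intervals on both sides of 1 over the bands. Qpctl, the Golgi relative of Qpct, was at 12.7 and 15.02 CPM, more than Qpct in the same cells, with a ratio of 1.18 (1.08 to 1.29) over all β-like cells and intervals containing 1 in each band.

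Among the substrates of at least 100 CPM Iapp was the one gene past 1.5-fold upward, at 43378 CPM in WT and 66733 in HFD, a ratio of 1.54. The 4 genes past 1.5-fold downward were hormones of the other endocrine classes, Ppy (2347 and 726 CPM), Gcg (1396 and 546), Pyy (1700 and 696) and Sst (1258 and 822). The ratio was 0.925 for Ins1 and 0.955 for Ins2. Below the 20 CPM needed to be named by rule, and singled out after their values were seen, Vgf, a granule protein, was at 6.16 and 17.2 CPM, a ratio of 2.79 (2.49 to 3.13), and the peptide hormone Cck had 2 UMIs in WT and 108 in HFD, a ratio of 43.4 (11.7 to 362.5). In α-like cells 16 of the 32 genes reached 100 CPM, with 6 intervals above 1 and 4 below, against 9.49% and 22.9% of all 990 genes. The 6 were Ins1, Ins2, Iapp, Sst, Pyy and Ppy, which are markers of the other endocrine classes here. All but Ppy, so 5 substrates, were at least 1.5-fold higher in HFD, as were 1.62% of the 990 genes. These counts include the larger insulin content of HFD α-like cells given above, and the part of RNA from other cells in them was not tested. Scg5 was at 1401 and 1234 CPM there, a ratio of 0.880 (0.806 to 0.962), and Pcsk1n at 5581 and 4330, a ratio of 0.776 (0.742 to 0.812). In δ-like cells the ratio was 1.01 (0.884 to 1.14) for Scg5 and 0.896 (0.826 to 0.972) for Pcsk1n.

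**Figure D5:**
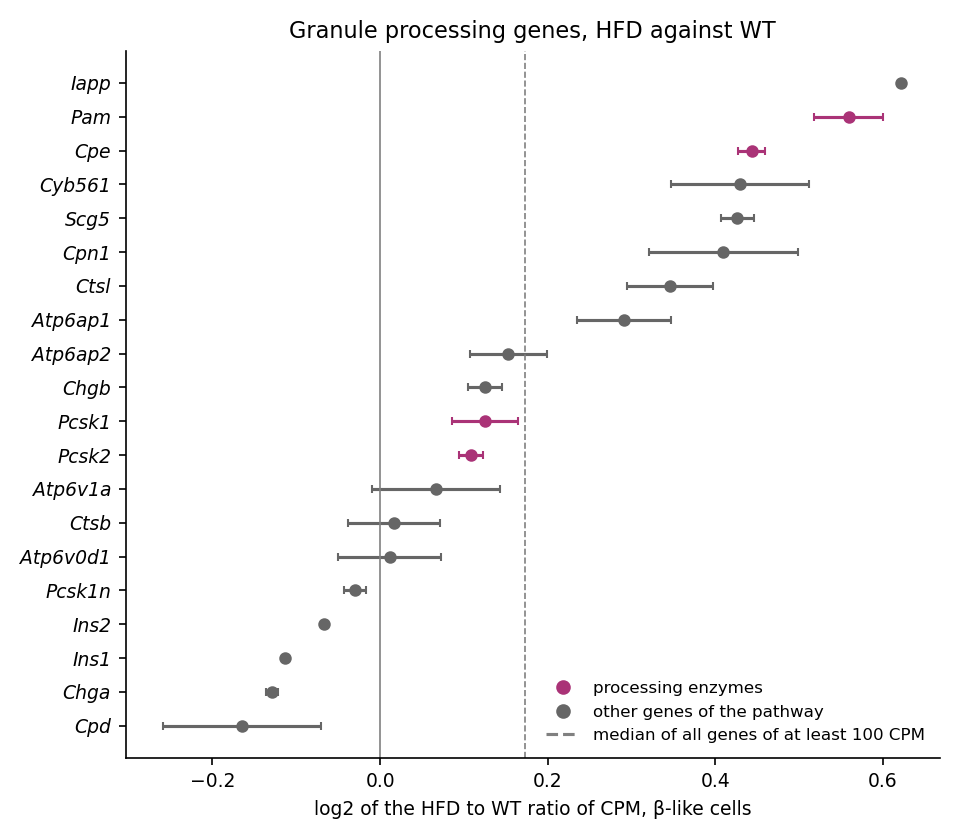
HFD to WT ratio on the log2 scale in β-like cells for the processing enzymes (purple) and other genes of the pathway (grey) with at least 20 CPM in 1 library, without the hormones Gcg, Sst, Ppy and Pyy of other classes; bars are exact 95% intervals for counting error and the dashed line is the median gene, at 0.17. Pam and Cpe lie at 0.56 and 0.44, and Pcsk1 and Pcsk2 at 0.12 and 0.11.

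HFD β-like cells of 15000 to 30000 UMIs were also split by genes of 2 known states. The 381 cells with a UMI of Aldh1a3, a gene known for its rise in failing β cells, were compared with the other 1413. Pam was at 195 CPM in them and 162 in the others, a ratio of 1.20 (1.13 to 1.27), and Furin at 12.2 and 9.25, a ratio of 1.32 (1.04 to 1.67). Pcsk1 had a ratio of 1.001 (0.939 to 1.07), Pcsk2 of 1.02 (1 to 1.05) and Cpe of 1.02 (0.995 to 1.04). Cells with Aldh1a3 had a median of 21119 UMIs against 18928. The 1652 cells with a UMI of the stress genes Ddit3 or Trib3 were compared with the other 142, and the interval of all 6 enzymes contained 1, with Pcsk1 at 0.978 (0.884 to 1.08) and Pam at 1.04 (0.941 to 1.15).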

How the data were processed

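The islets of both groups were profiled by 10x Genomics 3′ single-cell RNA sequencing (version 3 chemistry) after removal of dead cells with a kit. According to the header of each matrix and the study's methods, the authors ran Cell Ranger 3.0.2 with mm10, and the deposited counts are raw UMIs per gene and barcode. The WT table held 3895 barcodes and 73843674 UMIs (median 12425 per barcode), and the table for HFD held 94375138 UMIs over 8951 barcodes (median 9627). Barcodes with at least 500 genes and at most 20% mitochondrial UMIs were kept (2600 and 7297). The automatic doublet threshold of scanpy 1.11.5 called 1 and 0 barcodes, so the highest-scoring 3.11% and 7.16% were removed instead, at 0.8% per 1000 barcodes. Libraries were scaled to 10000 UMIs per cell, and 2000 variable genes without hormones, the 6 enzymes and the other pathway genes gave 50 principal components, 15 neighbours and Leiden clusters at resolution 1. Cells of clusters not first scored as β were clustered again at resolution 3. Non-β clusters of at least 20 cells with markers of more than 1 class among their leading genes were then divided by k-means. Classes were then assigned with 16 lists of markers, and the rule that assigned them was settled after the clusters had been seen.

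UMIs were summed per class and library. CPM is the count of a gene scaled to the summed UMIs of its class. Intervals are 95% exact Poisson, Clopper-Pearson or conditional binomial intervals (scipy 1.17.1) and cover counting error only. Ratios were read against genes of at least 100 CPM in 1 library. The alternatives were a maximum of 15000 UMIs, at least 1000 genes, at most 10% mitochondrial UMIs, doublets kept, classes by hormone, TMM (edgeR 4.0.16), the median ratio, totals without hormone and mitochondrial genes, and, chosen after seeing the data, cells with under 2% insulin UMIs, subtraction of Pcsk1 carried with insulin, UMI bands for α- and δ-like cells, and β-like cells without the clusters of under 5000 median UMIs. Named genes were the 6 enzymes, Scg5, Pcsk1n, Qpctl, up to 4 other pathway genes each way past 1.5-fold in β-like cells, and the 5 genes most like Pcsk1 and like Pcsk2. The enzymes, lists and rules were chosen with earlier results of these data known. The ratio and interval code was tested on simulated data.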

Additional observations from a re-analysis of the deposited data

Results flagged for a closer look

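The HFD to WT ratio of Pcsk2 lay on opposite sides of 1 in the endocrine classes, below it in α-like and δ-like cells and above it in β-like cells. The α-like minus the β-like log2 ratio was -0.62, and the δ-like minus the β-like log2 ratio was -0.40. Neither difference was tested, since each group is 1 library, both δ-like bands of UMIs had intervals that contain 1, and the β-like direction turned when the median gene was set to 1 or cells above 15000 UMIs were left out.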

How the results depend on the processing

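No paired analysis was possible because each group is 1 library, and no library could be left out. The β-like ratios depended most on a maximum of 15000 UMIs, which left 322 WT and 3917 HFD cells. Under it the log2 ratio was reversed for Pam (-0.20) and Pcsk2 (-0.050), and was 0.34 for Cpe, 0.28 for Pcsk1, -0.55 for Furin and -2.19 for Qpct. With the median gene set to 1 it was reversed for Pcsk1 (-0.048) and Pcsk2 (-0.064), and was 0.27 for Cpe, 0.39 for Pam and -0.29 for Furin. TMM gave 0.49 for Cpe, 0.61 for Pam, 0.17 for Pcsk1 and 0.16 for Pcsk2, and 1 enzyme (Pam) past 1.5-fold. Totals without hormone and mitochondrial genes gave 0.36, 0.48, 0.046 and 0.030 in the same order. Shares of genes past 1.5-fold were 14.9% with at least 10 UMIs and no minimum level, and 16.1% with the maximum of 15000 UMIs. The Pcsk1 share of the pair was 11.8% in WT β-like cells with classes by hormone and 9.48% with the maximum of UMIs. In WT α-like cells it was 0% under both of these. With hormone classes, which left 134 HFD α-like and only 8 WT δ-like cells, it was 0.0594% and 1.72% in them. Over cells with under 2% insulin UMIs it was 0.236% in HFD α-like and 1.99% in WT δ-like cells. The cause of these shifts was not tested. Cpe in β-like cells was higher in HFD under every alternative run, and Pcsk2 in α-like cells lower. Of the genes most like Pcsk1 and Pcsk2, 2 and 3 of 5 were found again with a pseudocount of 1 CPM. Depth limits the rare classes, with 51 WT α-like and 12 WT γ-like cells, and the low genes Furin and Qpct.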
